A study of Homo sapiens with 4 samples.

Results

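Erlotinib and agrimoniin were set side by side in subcutaneous PANC-1 tumours of nude mice. The comparison used every barcode of the library labelled as erlotinib treated (306) and of the library labelled as agrimoniin treated (297), which together are 603 of the 1056 barcodes in the series. Erlotinib is an inhibitor of the tyrosine kinase of EGFR, the epidermal growth factor receptor, and agrimoniin is a large ellagitannin from agrimony plants. PANC-1 is an established human pancreatic ductal adenocarcinoma line, so human genes report on tumour cells and mouse genes on host cells, and nude mice lack a thymus and most T cells. Libraries of tumours treated with both compounds (combination) and of control tumours are used only as levels beside the comparison. The labels give no dose, route, duration, host age or sex, and no number of animals per library. There was 1 library for each treatment, so every difference below is between 2 libraries, has no replicate check, and carries an interval for counting error only.

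Each of these barcodes held UMIs (unique molecular identifiers, counted transcripts) of both species. Human part here means the UMIs of a barcode on human genes, and mouse part those on mouse genes, so a part may come from more than 1 cell. The limits for keeping a part were 500 UMIs and 250 genes or more, and a mitochondrial share no higher than 25%. This left 292 human parts with 3775711 UMIs for erlotinib and 283 human parts with 3690705 UMIs for agrimoniin, and 305 mouse parts with 1383630 UMIs against 297 with 1338300. Human genes took 73.8% of all UMIs in the erlotinib library and 73.9% in the agrimoniin library. The median human part had 11926.5 UMIs and a mitochondrial share of 8.97% in the erlotinib library, against 12653 UMIs and 9.65% in the agrimoniin library. The 4 libraries shared 0 barcodes. Of 9 genes chosen to check the cell line, VIM, the intermediate filament of mesenchymal cells, stood at 5647 CPM (UMIs scaled to a library total of 1000000 human UMIs) in the erlotinib library and 6272 CPM in the agrimoniin library, and KRT18, an epithelial keratin, at 65.4 and 47.1 CPM in the same order. KRT7, KRT19, CDH1 and MUC1, epithelial markers of duct cells, were under 5 CPM in both libraries, so the label of a ductal line was not borne out by these 4 markers.

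EGFR binds ligands such as TGF-alpha and epiregulin outside the cell, and its kinase then drives the RAS, RAF, MEK and ERK cascade. Active ERK raises immediate early genes within minutes and, through ETS family factors, its own inhibitors: DUSP6, a phosphatase that takes phosphate off ERK, and the SPRY proteins. These feedback genes are common readouts of ERK activity in tumours. Heat shock genes are controlled by another route, in which the factor HSF1 binds inverted repeats of GAA upstream of chaperone genes.

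On a log2 scale with 10 CPM added, DUSP6 was the human gene furthest below agrimoniin in the erlotinib library and HSPA6, an inducible HSP70 chaperone, the gene furthest above it. The 250 bases before the RefSeq start (GRCh38.p14, 5′ to 3′ on the gene's strand) are shown for DUSP6, for HSPA6, and for HSPA1A and HSPA1B, the near-identical HSP70 pair of which HSPA1A was also higher. In the DUSP6 sequence, capitals mark the core of ETS sites, CGGAA or its reverse complement TTCCG. In the other sequences they mark inverted repeats of the heat shock element, GAANNTTC or TTCNNGAA. Both motifs were searched on both strands.
DUSP6 (chr12:89352502-89352751, minus strand): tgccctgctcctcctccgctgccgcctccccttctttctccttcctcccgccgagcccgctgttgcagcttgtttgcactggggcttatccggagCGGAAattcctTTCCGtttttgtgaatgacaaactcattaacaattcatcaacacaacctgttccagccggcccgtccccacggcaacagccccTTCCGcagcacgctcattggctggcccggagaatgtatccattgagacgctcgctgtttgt
HSPA6 (chr1:161524290-161524539, plus strand): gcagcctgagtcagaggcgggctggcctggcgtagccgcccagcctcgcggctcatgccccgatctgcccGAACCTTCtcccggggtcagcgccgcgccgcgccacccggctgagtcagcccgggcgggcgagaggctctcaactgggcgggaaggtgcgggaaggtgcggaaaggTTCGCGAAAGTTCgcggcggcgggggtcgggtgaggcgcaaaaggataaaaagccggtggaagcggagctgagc
HSPA1A (chr6:31815293-31815542, plus strand): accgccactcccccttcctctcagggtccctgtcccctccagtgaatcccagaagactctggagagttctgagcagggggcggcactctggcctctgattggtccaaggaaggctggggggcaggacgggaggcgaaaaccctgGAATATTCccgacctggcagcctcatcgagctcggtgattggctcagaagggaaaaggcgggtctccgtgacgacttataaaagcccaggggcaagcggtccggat
HSPA1B (chr6:31827488-31827737, plus strand): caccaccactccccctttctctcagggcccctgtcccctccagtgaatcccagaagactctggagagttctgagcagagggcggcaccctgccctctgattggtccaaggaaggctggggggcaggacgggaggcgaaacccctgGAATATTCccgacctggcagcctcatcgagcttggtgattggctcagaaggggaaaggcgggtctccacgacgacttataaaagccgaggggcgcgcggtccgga
The DUSP6 window held 3 ETS cores, and 30.3% of 35116 RefSeq windows of this length held at least 1. The HSPA6 window held 3 heat shock repeats, of which 2 overlap by 3 bases, between 74 and 62 bases before the start. HSPA1A and HSPA1B held 1 each, and 11.6% of all windows held at least 1. Over the heat shock list used below, 17 of the 24 genes with a window held a match. A match describes the letters only. By the GENCODE 29 positions given below, the DUSP6 window lies wholly inside the gene and the HSPA1A window overlaps its gene. For these genes the start thus depends on the annotation used.

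Across the transcriptome the human parts of both libraries were alike apart from a small set of genes. A gene was compared with a mean of at least 20 CPM over both libraries and UMIs in 10% or more of the parts on its higher side, and was called past 1.5-fold on log2((CPM + 10)/(CPM + 10)), erlotinib over agrimoniin, a scale that understates the change of low genes. Of 7187 human genes, 22 (0.306%) were higher and 42 (0.584%) lower in erlotinib, and for all 64 the exact 95% interval of the ratio excluded 1. Pearson's r of log2(CPM + 10) across these genes was 0.986, where genes share library and depth and are not replicates. The SD of the log2 ratio over genes was 0.20, against 0.12 from counting error alone. The ratios of the 22 higher genes ran from 1.56 to 4.59, and agrimoniin exceeded erlotinib by 1.59-fold to 3.55-fold for the 42 lower genes. Control lay between both drug libraries for 13 of the 22 higher and 32 of the 42 lower genes.

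**Figure D1:**
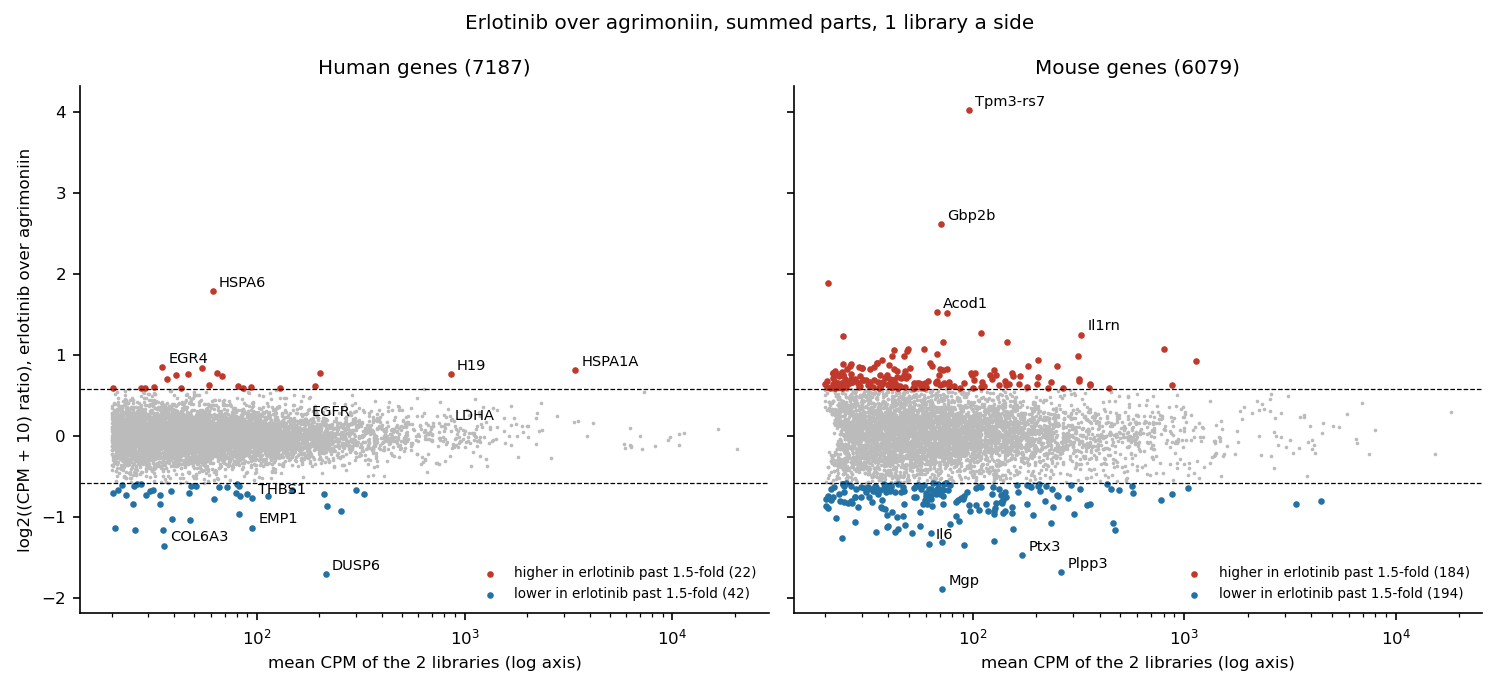
Log2 ratio of CPM + 10, erlotinib over agrimoniin, against the mean CPM of both libraries on a log axis, for human genes (left) and mouse genes (right). Red and blue points are the genes higher and lower past 1.5-fold (dashed lines), 22 and 42 of 7187 human genes and 184 and 194 of 6079 mouse genes.

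Among ERK feedback genes, DUSP6 (chromosome 12, 89347232 to 89353271) had 95.1 CPM in the erlotinib library against 334 CPM in the agrimoniin library, 312 CPM in combination and 186 CPM in control. The ratio was 0.285 (0.252 to 0.320), from 359 and 1233 UMIs. The erlotinib library was the lowest of the 4, and the agrimoniin and combination libraries were both above control. Per human part, the median was 0 CPM in erlotinib and 111 CPM in agrimoniin, and the upper quartile 124 and 391 CPM. EMP1, a membrane protein induced by growth factor signalling, had 55.9 CPM in erlotinib and 134 CPM in agrimoniin, with 104.5 CPM in combination and 138 CPM in control. SPRY1, an inhibitor of receptor tyrosine kinase signalling, had 19.6 CPM in erlotinib and 39.0 CPM in agrimoniin (ratio 0.502, 0.374 to 0.669), with 33.4 CPM in combination and 23.5 CPM in control. These 3 were the members past 1.5-fold among 18 measured of the 22 genes of the ERK output list, where 0 were higher. Over all 9283 human genes with a mean of at least 10 CPM, 0.388% were higher and 0.636% lower. The list's median log2 ratio was -0.22 and that of all genes -0.01. PHLDA1, a further ERK-induced gene, had 329 CPM in erlotinib and 429 CPM in agrimoniin, inside the 1.5-fold limit.

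The receptor itself differed little. EGFR had 184 CPM in the erlotinib library and 160 CPM in the agrimoniin library (1.15, 1.03 to 1.29), with 160 CPM in combination and 169 CPM in control. Of 8 measured members of the EGFR family and ligand list, 0 were past 1.5-fold, and the median log2 ratio was -0.21. The ligands HBEGF (20.1 CPM in erlotinib, 32.0 CPM in agrimoniin), EREG (38.4 and 56.1 CPM in that order) and NRG1 (50.9 and 72.9 CPM) were on the lower side in erlotinib. TGFA, at 17.5 CPM in erlotinib and 11.7 CPM in agrimoniin, was on the higher side.

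Immediate early genes went in both directions. Of 20 measured members, 1 was higher and 2 lower past 1.5-fold, with a median of 0.15. EGR4, a zinc finger factor, had 47.9 CPM in erlotinib and 22.2 CPM in agrimoniin (2.16, 1.65 to 2.84), and both combination (32.5 CPM) and control (16.5 CPM) were under the erlotinib value. KLF2 had 173 CPM in erlotinib and 338 CPM in agrimoniin (0.513, 0.466 to 0.564), against 342.5 CPM in combination and 264 CPM in control. KLF4 had 52.2 CPM in erlotinib and 112 CPM in agrimoniin (0.467, 0.392 to 0.555), with about the same 106 CPM in combination and control. For both Krüppel-like factors, which are transcription factors, erlotinib was the lowest of the 4 libraries. NR4A1, an orphan nuclear receptor, had 767 CPM in erlotinib and 508 CPM in agrimoniin and stayed just inside the limit.

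In the heat shock list, the inducible HSP70 genes HSPA6 and HSPA1A were higher in erlotinib past 1.5-fold. HSPA6 (chromosome 1, 161524540 to 161526910) had 101 CPM in the erlotinib library against 21.9 CPM in the agrimoniin library, 15.1 CPM in combination and 95.02 CPM in control. The ratio was 4.59 (3.60 to 5.90), from 380 and 81 UMIs. Erlotinib and control were thus close together at the high end, and both libraries with agrimoniin were at the low end. HSPA1A (chromosome 6, 31815464 to 31817946) had 4343 CPM in erlotinib and 2467 CPM in agrimoniin (1.76, 1.72 to 1.81), with 2705 CPM in combination and 3533 CPM in control, so again the libraries with agrimoniin were the lower pair. HSPA1B, inside the limit, had 1894 CPM in erlotinib and 1467 CPM in agrimoniin. HSPA1A and HSPA1B are near-identical, so the split of reads between them is uncertain. These were 2 of 23 measured list members past 1.5-fold, 0 were lower, and the median log2 ratio was 0.05. DNAJB1, a co-chaperone of HSP70, had 417 CPM in erlotinib and 344 CPM in agrimoniin.

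**Figure D2:**
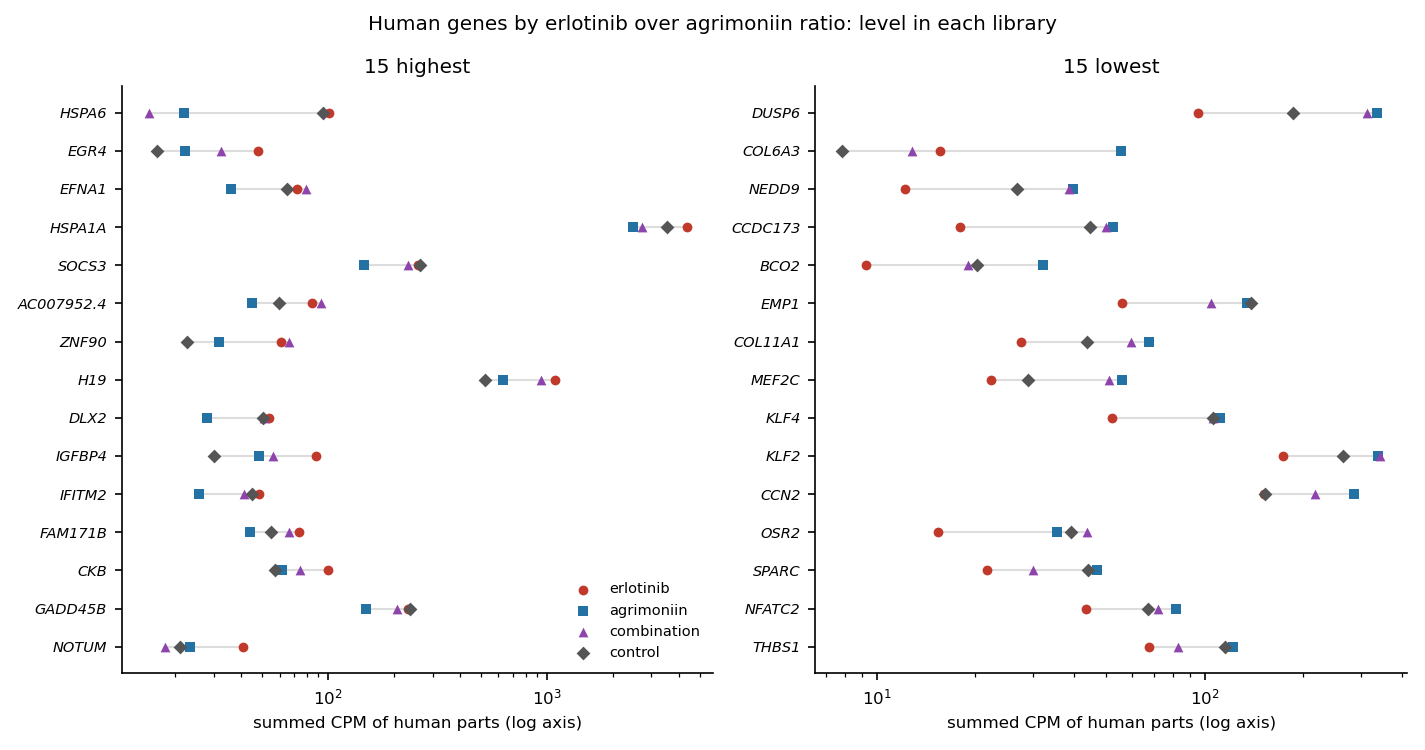
Summed CPM of the 15 highest (left) and 15 lowest (right) human genes by erlotinib over agrimoniin, 1 point per library (log axis). DUSP6 stood at 95.1 CPM in erlotinib and 334 CPM in agrimoniin, and HSPA6 at 101 and 21.9 CPM.

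The other genes at the high end were of mixed kinds. EFNA1, a membrane-bound ligand of EPH receptors, had 72.3 CPM in erlotinib and 36.0 CPM in agrimoniin (2.01, 1.62 to 2.49), with 79.1 CPM in combination and 64.9 CPM in control, so agrimoniin was the lowest of the 4. SOCS3, a feedback inhibitor of cytokine signalling, had 258 CPM in erlotinib and 147 CPM in agrimoniin (1.76, 1.58 to 1.96), against 233 CPM in combination and 263 CPM in control. The stress gene GADD45B, at 232 CPM in erlotinib and 148 CPM in agrimoniin, and IFITM2, an interferon-induced membrane protein, at 48.5 and 25.7 CPM, likewise had their lowest value in the agrimoniin library. DLX2, a homeobox factor, had 53.8 CPM in erlotinib and 27.9 CPM in agrimoniin. H19, an imprinted noncoding RNA on chromosome 11, had 1083 CPM in erlotinib and 632 CPM in agrimoniin (1.71, 1.63 to 1.80), with 935 CPM in combination and 520.1 CPM in control. IGFBP4, which binds insulin-like growth factors, had 87.7 CPM in erlotinib and 48.5 CPM in agrimoniin, and 1 barcode held 16.9% and 24.0% of its UMIs in these libraries. Creatine kinase B (CKB) had 99.8 CPM in erlotinib and 61.8 CPM in agrimoniin. NOTUM, an enzyme that inactivates WNT proteins, had 40.8 CPM in erlotinib and 23.3 CPM in agrimoniin. ZNF90, AC007952.4 (a long noncoding RNA) and FAM171B complete the 15 highest, with ratios of 1.93, 1.87 and 1.67.

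Among the other low genes, CCN2, a secreted target of YAP and TGF-beta signalling, had 151.5 CPM in erlotinib and 285 CPM in agrimoniin (0.531, 0.479 to 0.588), with 216 CPM in combination and 152 CPM in control, so erlotinib stood at the control level. COL11A1, a fibrillar collagen chain, had 27.5 CPM in erlotinib and 67.5 CPM in agrimoniin. COL12A1, a further collagen chain, was among the 22 higher genes, with 115 CPM in erlotinib and 72.1 CPM in agrimoniin. THBS1, a matrix glycoprotein, had 67.8 CPM in erlotinib and 122 CPM in agrimoniin in sum. Per part it went the other way, since 92 of 292 erlotinib parts and 65 of 283 agrimoniin parts held a UMI, and 1 barcode held 13.7% of the agrimoniin UMIs. Its ratio was 0.986 (0.698 to 1.39) in barcodes with fibroblast-like mouse parts and 0.253 (0.188 to 0.336) in those with monocyte-like ones. COL6A3, a collagen VI chain, had 15.6 CPM in erlotinib and 55.5 CPM in agrimoniin, and agrimoniin was the library apart, since combination had 12.9 CPM and control 7.85 CPM. SPARC, a collagen-binding protein, had 21.7 CPM in erlotinib and 46.9 CPM in agrimoniin, and 1 barcode held 45.1% of its erlotinib UMIs. NEDD9, a focal adhesion scaffold, had 12.2 CPM in erlotinib and 39.6 CPM in agrimoniin (0.308, 0.216 to 0.432), with 38.6 CPM in combination and 26.9 CPM in control. The transcription factors MEF2C (22.2 CPM in erlotinib, 55.8 CPM in agrimoniin), OSR2 (15.4 and 35.5 CPM in that order) and NFATC2 (43.4 and 81.6 CPM) and the genes CCDC173 (18.01 and 52.6 CPM) and BCO2, a carotenoid-cleaving enzyme (9.27 and 32.2 CPM), complete the 15 lowest. For MEF2C, OSR2, NFATC2, CCDC173 and BCO2 the erlotinib library was the lowest of the 4.

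In the mesenchymal list 1 of 15 measured members was higher and 3 lower, with a median of -0.06. The 3 were COL6A3, SPARC and THBS1, and the higher one was ACTA2, smooth muscle actin, at 23.6 CPM in erlotinib and 4.34 CPM in agrimoniin, with 56% of its erlotinib UMIs in 1 barcode. The epithelial list had 0 of 8 members past the limit. Of the YAP and TEAD targets, 1 of 13 (CCN2) was lower, and CCN1 had 655 CPM in erlotinib and 826 CPM in agrimoniin. In the BMP and TGF-beta list the receptor BMPR1B was the 1 of 17 past the limit, at 12.98 CPM in erlotinib and 27.4 CPM in agrimoniin. The basement membrane list had 0 of 12 past it.

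The glycolysis, lactate handling, oxidative phosphorylation, S phase and G2/M lists had 0 members past 1.5-fold. LDHA, the lactate dehydrogenase chain that favours lactate, had 878 CPM in erlotinib and 791 CPM in agrimoniin (1.11, 1.06 to 1.17), with 778 CPM in combination and 726 CPM in control. LDHB, the chain that favours pyruvate, had 358 CPM in erlotinib and 324 CPM in agrimoniin (1.11, 1.02 to 1.20). Of 17 glycolysis genes and 9 lactate handling genes, 0 were past the limit, and the medians were -0.03 and -0.05. The glucose transporter SLC2A1 came nearest, with 76.8 CPM in erlotinib and 117 CPM in agrimoniin. In the oxidative phosphorylation list 24 of 34 members were above 0 and 10 below, 0 past the limit, with a median of 0.09. MKI67, a marker of dividing cells, had 160.5 CPM in erlotinib and 141 CPM in agrimoniin (1.14, 1.01 to 1.28). The S phase list (26 measured) and the G2/M list (29 measured) had 0 members past the limit and medians of 0.01 and 0.02.

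Stress and survival lists held few members past the limit. NRF2 is the factor that raises antioxidant genes, and 2 of the 15 measured genes on its list were lower, 0 higher, with 14 of 15 below 0 and a median of -0.14. SLC7A11, the cystine transporter, had 8.74 CPM in erlotinib and 24.4 CPM in agrimoniin (0.358, 0.233 to 0.540), and both combination (13.8 CPM) and control (11.98 CPM) were nearer to erlotinib. TKT, transketolase of the pentose phosphate pathway, had 65.2 CPM in erlotinib and 113 CPM in agrimoniin (0.575, 0.489 to 0.675), with 84.3 CPM in combination and 95.4 CPM in control. In the aryl hydrocarbon receptor list 5 of 5 members were below 0, 0 past the limit, with a median of -0.23. The NF-kB and cytokine list had 1 of 15 higher (SOCS3) and 2 lower. TNFAIP3, an inhibitor of NF-kB, had 23.0 CPM in erlotinib and 45.0 CPM in agrimoniin, and CXCL8, a neutrophil chemokine, had 6.09 and 15.2 CPM with over 60% of its UMIs in 1 barcode of each library. The interferon list had 1 of 9 higher (IFITM2), and the list of cell cycle inhibitors and p53 targets 1 of 14 higher (GADD45B). In the list of the insulin-like growth factor axis 2 of 13 were higher, H19 and IGFBP4. The integrated stress and unfolded protein, hypoxia, BCL2 family, MHC class I and cholesterol lists had 0 members past the limit, with medians of -0.01, -0.07, 0.08, -0.04 and -0.10.

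**Figure D3:**
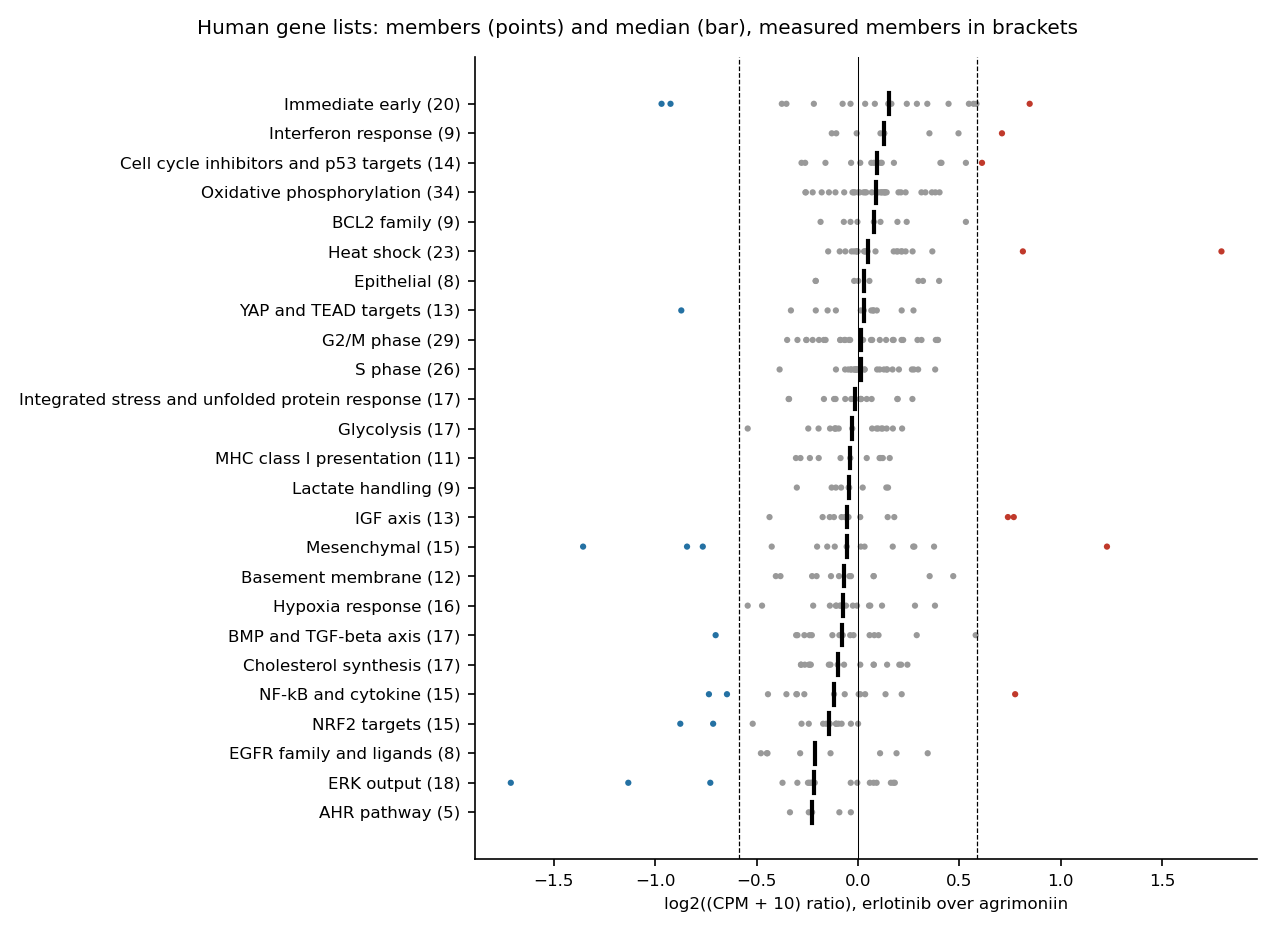
Log2 ratio (erlotinib over agrimoniin) of the measured members of each human list, 1 point per gene, with the list median as a bar and dashed lines at 1.5-fold. Medians lay between -0.23 and 0.15, with DUSP6 in the ERK output list and HSPA6 in the heat shock list at the ends.

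The human differences were also read by the host class of the mouse part in the same barcode, as described below. In barcodes with a macrophage-like mouse part and in those with a fibroblast-like one, 64 of 64 genes called on all barcodes had the same direction, and 59 of 64 did in those with a monocyte-like one, where 61 erlotinib and 39 agrimoniin human parts remained. These barcodes are part of the sums that chose the genes, so the same direction is no separate support. The genes still past 1.5-fold were 48, 41 and 39 of the 64 in these subsets. The exceptions there were IGFBP4, NOTUM, STC1, CTSV and COL6A3. DUSP6 had 97.6 CPM in erlotinib and 368 CPM in agrimoniin with macrophage-like parts, 87.1 and 277 CPM with fibroblast-like parts, and 96.5 and 231 CPM with monocyte-like parts, always in that order. HSPA6 likewise had 93.9 and 21.4 CPM, 102 and 20.8 CPM, and 123 and 22.2 CPM.

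Mouse genes past 1.5-fold took a larger share of those compared than human genes did, at a lower depth. Of 6079 mouse genes compared by the same rule, 184 (3.03%) were higher and 194 (3.19%) lower in erlotinib, and the SD of the log2 ratio was 0.32, against 0.19 from counting. In summed mouse parts, fewer cells of a type and less RNA per cell cannot be told apart. Over all 8770 mouse genes with a mean of at least 10 CPM, the background of the lists below, 3.5% were higher and 4.34% lower.

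Among genes within the limits on level and share of parts, the highest ratios were those of 3 genes that differed in the same way across all 4 libraries. Tpm3-rs7, a tropomyosin-related sequence, had 190.1 CPM in the erlotinib library and 2.24 CPM in the agrimoniin library, from 263 and 3 UMIs, with 0 CPM in combination and 66.1 CPM in control. The ratio was 84.8 (28.7 to 414). Gbp2b, a guanylate binding protein, had 129 CPM in erlotinib and 12.7 CPM in agrimoniin, against 11.2 CPM in combination and 62.6 CPM in control, and Rnaset2b, a lysosomal RNase, had 38.3, 2.99, 4.50 and 30.4 CPM in that order. For all 3 genes erlotinib and control were high and both libraries with agrimoniin were low. Each has a close copy elsewhere in the genome, and reads may be shared between copies. Of the copies, Tpm3 had 381 CPM in erlotinib and 466 CPM in agrimoniin, and Gbp2 had 86.7 and 169 CPM. Rnaset2a had 164 and 119 CPM and went the same way as Rnaset2b, by less (1.38, 1.12 to 1.70). The labels do not name the strain or litter of the hosts, so host animal and treatment cannot be told apart for these genes.

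Among the next highest, Acod1, which makes the metabolite itaconate, had 106 CPM in erlotinib and 29.9 CPM in agrimoniin (3.53, 2.47 to 5.14), with 116 CPM in combination and 46.1 CPM in control. Il1rn, the interleukin-1 receptor antagonist, had 463 CPM in erlotinib and 188 CPM in agrimoniin (2.46, 2.12 to 2.85). Combination had 197 CPM and control 171 CPM, so erlotinib was the library apart in these summed parts. Its levels within host classes, given below, did not all follow this order. Clec4e, a receptor for microbial glycolipids, had 104 CPM in erlotinib and 41.1 CPM in agrimoniin, and Ifi44, an interferon-induced gene, had 204.5 and 85.9 CPM. Clec4e was a leading gene of the monocyte-like cluster described below, which held 66 erlotinib and 43 agrimoniin parts. The part of these numbers in its summed value was not tested. Gm47283 (159 CPM in erlotinib, 59.8 CPM in agrimoniin) and Rttn, a centrosomal protein (38.3 and 10.5 CPM), were also among the 10 highest.

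At the low end, Plpp3, a lipid phosphatase, had 120.0 CPM in erlotinib and 406 CPM in agrimoniin (0.295, 0.247 to 0.352), with 228 CPM in combination and 153 CPM in control. Mgp, an inhibitor of matrix calcification, had 24.6 CPM in erlotinib and 119 CPM in agrimoniin, against 91.1 CPM in combination and 259 CPM in control. Ptx3, a soluble pattern recognition protein, had 86.0 CPM in erlotinib and 256 CPM in agrimoniin, and the cytokine Il6 had 31.1 and 93.4 CPM. Ptx3 was a leading gene of a fibroblast-like cluster described below, which held 37 erlotinib and 55 agrimoniin parts. The part of these numbers in its summed value was not tested. Spry1 had 27.5 CPM in erlotinib and 76.2 CPM in agrimoniin (0.360, 0.241 to 0.528). Osr2 (36.9 and 106 CPM), Fcrls, a macrophage gene (47.0 and 134.5 CPM), Rgs16, a regulator of G protein signalling (69.4 and 185 CPM), Nhsl1 (10.1 and 38.1 CPM) and the monoglyceride lipase Mgll (34.7 and 92.7 CPM) complete the 10 lowest, with erlotinib given first.

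The species were compared through genes of the same symbol. Of the 22 human genes higher in erlotinib, 11 had a mouse gene with a mean of at least 20 CPM, and 2 of these (Egr4 and Ckb) were past 1.5-fold the same way and 2 (H19 and Igsf10) the other way. Of the 42 lower human genes, 32 had such a mouse gene, with 6 past the limit the same way (Spry1, Osr2, Klf2, Klf4, Tnfaip3 and Ank2) and 1 (Tuba1a) the other way. Mouse Dusp6 had 189 CPM in erlotinib and 274 CPM in agrimoniin, inside the limit. Mouse Hspa1a had 2946 CPM in erlotinib and 2144 CPM in agrimoniin (1.37, 1.31 to 1.44).

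Mouse parts of all 4 libraries were clustered together and clusters named from marker lists. Macrophage-like parts, in 3 clusters, were 44.9% (39.2 to 50.7, exact 95% binomial interval) of the erlotinib mouse parts and 44.8% (39.0 to 50.6) of the agrimoniin ones. Fibroblast-like parts, in 2 clusters, were 29.2% (24.1 to 34.6) and 32.7% (27.4 to 38.3) in the same order. Monocyte-like parts were 21.6% (17.1 to 26.7) in erlotinib and 14.5% (10.7 to 19) in agrimoniin, with overlapping intervals. Their cluster was named from 4 of 7 monocyte markers. The sum of the monocyte gene list did not follow this share. Over all mouse parts it was 1447 CPM in erlotinib and 1615 CPM in agrimoniin (0.896, 0.842 to 0.952). Within monocyte-like parts the ratio of the sums was 0.790 (0.700 to 0.892). Endothelial-like parts numbered 9 in erlotinib and 16 in agrimoniin, and pericyte- or smooth muscle-like parts 4 and 8. Within the fibroblast-like class, the cluster led by Grem1 and Col11a1 held 52 erlotinib and 42 agrimoniin parts, and the cluster led by Prg4 and Efemp1 held 37 and 55. Values of Tnc, Spp1, Hspa1a, Plpp3 and Ccl2 are given for each of these clusters below. In the Grem1 and Prg4 clusters the ratios were 0.634 and 0.442 for Klf2, 0.744 and 0.586 for Klf4, and 0.399 and 0.114 for Spry1. They were 0.689 and 0.784 for Dusp6, and 0.531 and 0.366 for Il6. The intervals included 1 for Dusp6 in the Prg4 cluster and for Il6 in the Grem1 cluster. For the remaining fibroblast-like values the part of this split was not tested.

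**Figure D4:**
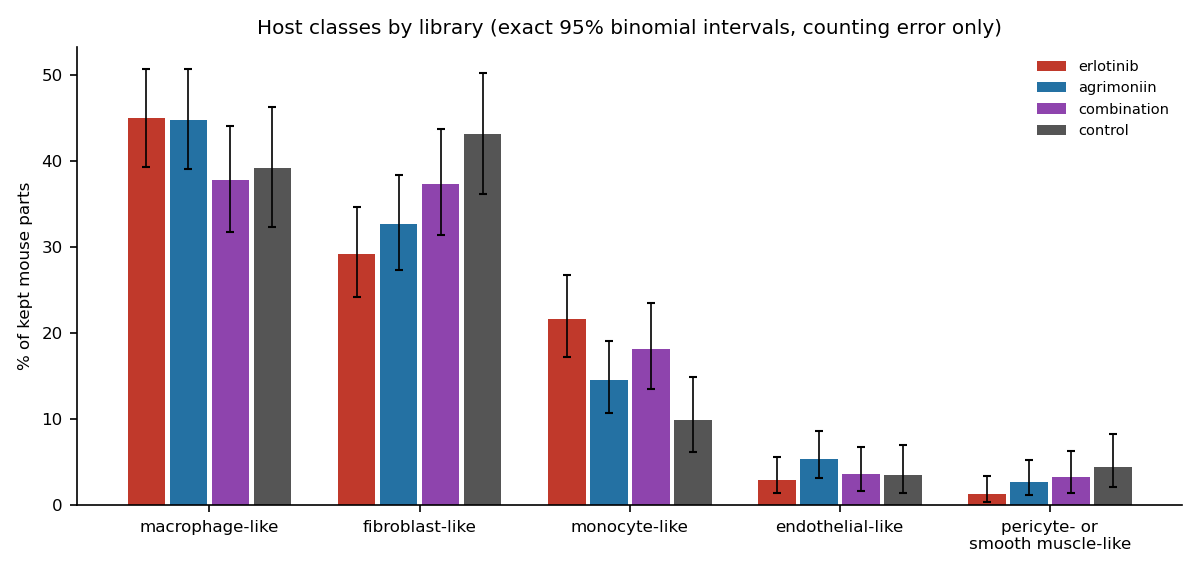
Share of kept mouse parts in each host class, by library, with exact 95% binomial intervals that cover counting error only. Monocyte-like parts were 21.6% in erlotinib and 14.5% in agrimoniin, and macrophage-like parts 44.9% and 44.8%.

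Several host lists rested on few barcodes. Mcpt4, a mast cell protease, had 26.0 CPM in erlotinib and 233 CPM in agrimoniin, and 1 barcode held 100% of its erlotinib and 59.6% of its agrimoniin UMIs. All 6 measured members of the list of B, T and mast cell genes were lower past 1.5-fold. The fat cell genes Adipoq and Cidec were at 0 UMIs in erlotinib, which allows up to 3 counts, and Adipoq had 75.5 CPM in agrimoniin with 98.0% of its UMIs in 1 barcode. The endothelial list had 5 of 7 measured members lower, such as Pecam1 at 26.0 CPM in erlotinib and 62.0 CPM in agrimoniin, and the pericyte list 2 of 5, led by Rgs5 at 23.9 and 176 CPM. Endothelial-like parts numbered 9 in erlotinib and 16 in agrimoniin and pericyte- or smooth muscle-like parts 4 and 8, and their part in these values was not tested.

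Host immediate early genes were mostly below their agrimoniin level. Of 19 measured members, 18 were below 0, 5 were lower past 1.5-fold and 0 higher, with a median of -0.40, against 0.02 for all mouse genes. Fos had 3223 CPM in erlotinib and 5615 CPM in agrimoniin (0.574, 0.553 to 0.596), with 5803 CPM in combination and 3632 CPM in control. Fosb had 2414 CPM in erlotinib and 4344 CPM in agrimoniin, against 3705 CPM in combination and 2554 CPM in control. Klf2 had 294 CPM in erlotinib and 631 CPM in agrimoniin (0.466, 0.413 to 0.526), against 810.0 CPM in combination and 289 CPM in control. Both libraries with agrimoniin were thus above both libraries without it for these 3 genes.

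In each of the 3 large classes the summed immediate early genes were lower in erlotinib. They made up 22638 CPM in erlotinib and 28838.5 CPM in agrimoniin in macrophage-like parts (0.785, 0.766 to 0.804). In fibroblast-like parts the ratio was 0.751 (0.734 to 0.768), and in monocyte-like parts 0.566 (0.540 to 0.594). Klf2 was lower in all 3: it had 510 CPM in erlotinib and 953 CPM in agrimoniin in macrophage-like parts, 158 and 309 CPM in fibroblast-like parts, and 64.6 and 707 CPM in monocyte-like parts, the last from 15 and 95 UMIs. Klf4 had 670 CPM in erlotinib and 1108 CPM in agrimoniin in macrophage-like parts, 705 and 1204 CPM in fibroblast-like parts, and 577 and 1102 CPM in monocyte-like parts.

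In the host ERK output list, of 16 measured members, 4 were lower past 1.5-fold and 0 higher, with a median of -0.33. Besides Spry1, these were Myc (166 CPM in erlotinib, 313 CPM in agrimoniin), Spry2 (41.2 and 78.5 CPM) and Trib1, a pseudokinase (229 and 355 CPM). Spry1 was measured mainly in fibroblast-like parts, at 39.0 CPM in erlotinib and 127 CPM in agrimoniin (0.308, 0.182 to 0.501). Dusp6 had 136 CPM in erlotinib and 202 CPM in agrimoniin in macrophage-like parts, 257 and 328.5 CPM in fibroblast-like parts, and 56.0 and 313 CPM in monocyte-like parts, where the ratio was 0.179 (0.0882 to 0.340) from 13 and 42 UMIs. Mouse Egfr had 59.3 CPM in erlotinib and 71.0 CPM in agrimoniin, with an interval of the ratio that included 1 (0.614 to 1.13).

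**Figure D5:**
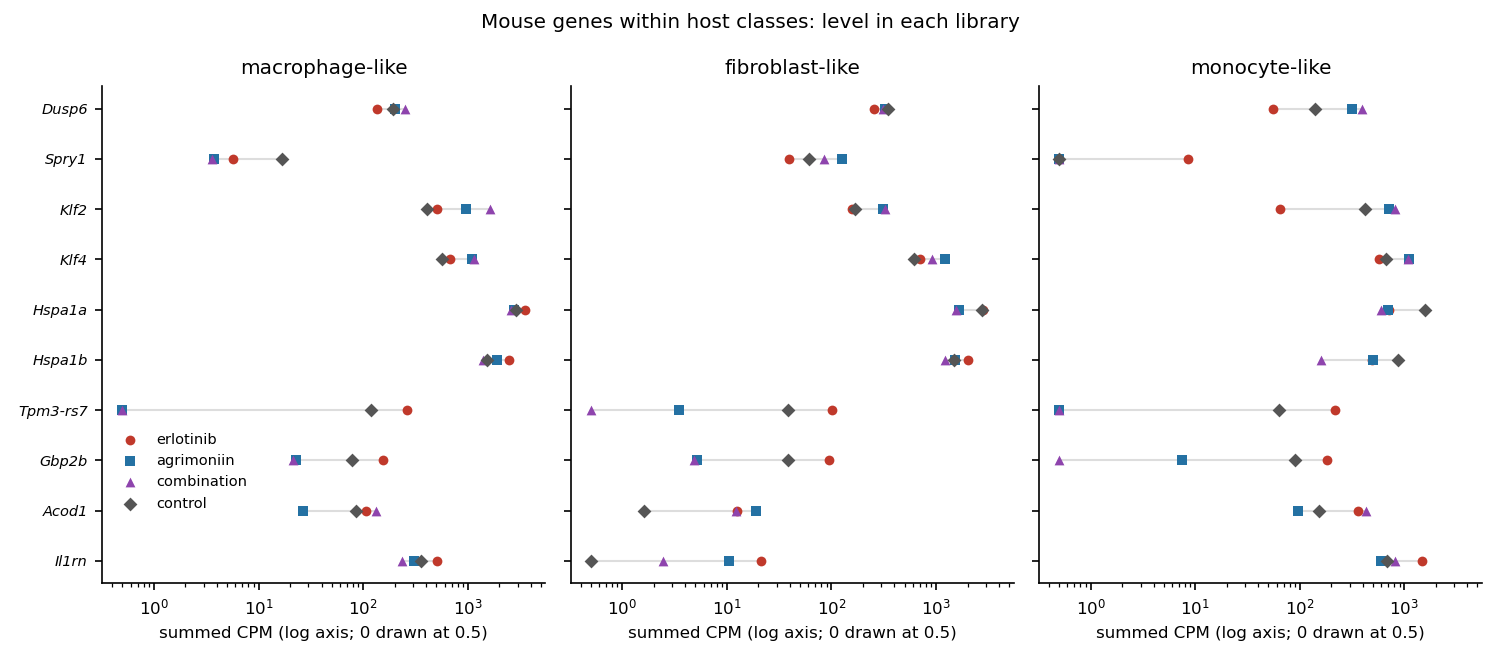
Summed CPM of 10 mouse genes within the macrophage-like, fibroblast-like and monocyte-like classes, 1 point per library on a log axis, with values of 0 drawn at 0.5. In monocyte-like parts Klf2 had 64.6 CPM in erlotinib and 707 CPM in agrimoniin, and Tpm3-rs7 215 and 0 CPM.

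Within fibroblast-like parts (89 of erlotinib and 97 of agrimoniin), the summed collagen genes were higher in erlotinib. These 19 genes summed to 95079.5 CPM in erlotinib and 73575 CPM in agrimoniin (1.29, 1.28 to 1.31), with 78048 CPM in combination and 77834 CPM in control, so erlotinib was the highest of the 4. Tnc, the matrix protein tenascin C, had 3558 CPM in erlotinib and 1636 CPM in agrimoniin (2.18, 2.01 to 2.35). Its level was 1858 CPM in combination and 3615 CPM in control. Spp1, osteopontin, had 2018 CPM in erlotinib and 881 CPM in agrimoniin, with 424 CPM in combination and 1744 CPM in control. For both genes the libraries with agrimoniin were the lower pair, and erlotinib was near control. Both differences between erlotinib and agrimoniin were in the Grem1 cluster, with ratios of 2.56 (2.32 to 2.82) for Tnc and 2.35 (2.09 to 2.65) for Spp1. In the Prg4 cluster the ratios were 1.08 (0.930 to 1.25) for Tnc and 0.898 (0.684 to 1.17) for Spp1, with intervals that included 1. Heat shock genes summed to 1.26 times the agrimoniin value (1.22 to 1.29), against 1.09 times (1.06 to 1.13) in macrophage-like parts. In monocyte-like parts their sum was lower in erlotinib (0.855, 0.794 to 0.922). Hspa1a had 2820 CPM in erlotinib and 1648 CPM in agrimoniin in fibroblast-like parts. Its ratios were 1.21 (1.09 to 1.35) in the Grem1 cluster and 2.54 (2.24 to 2.89) in the Prg4 cluster. In macrophage-like parts the Hspa1a ratio was 1.28 (1.19 to 1.37), and in monocyte-like parts 1.03 (0.791 to 1.34). Besides Tpm3-rs7 (101 and 3.48 CPM) and Gbp2b (94.1 and 5.21 CPM), the 5 highest genes were Sparcl1, Tuft1 and Serpinb2. Sparcl1, a matricellular protein, had 456 CPM in erlotinib and 59.1 CPM in agrimoniin, with 80.9 CPM in combination and 886 CPM in control. Tuft1 had 232 CPM in erlotinib and 27.8 CPM in agrimoniin. Serpinb2, a plasminogen activator inhibitor, had 137 and 13.9 CPM in that order, with 32.5% and 62.5% of UMIs in 1 barcode. The 5 lowest were Angptl1 (1 UMI in erlotinib, 35 in agrimoniin), the fatty acid desaturase Scd1 (26.6 and 203 CPM, with 84% of the agrimoniin UMIs in 1 barcode), Nes, an intermediate filament (12.4 and 90.4 CPM), Mgp (60.3 and 271 CPM) and Shox2 (12.4 and 78.2 CPM). Plpp3 had 248 CPM in erlotinib and 850 CPM in agrimoniin and was lower in both clusters (0.426 in the Grem1 cluster, 0.308 in the Prg4 cluster), and Il6 63.9 and 176 CPM.

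Within macrophage-like parts (137 of erlotinib and 133 of agrimoniin), antigen presentation genes of MHC class II summed to 27999 CPM in erlotinib and 23286 CPM in agrimoniin (1.20, 1.17 to 1.23). Over all mouse parts that list had 0 of 10 members past 1.5-fold and a median of 0.27, with H2-Eb1 at 3043 CPM in erlotinib and 2127 CPM in agrimoniin. Tpm3-rs7 had 138 UMIs in erlotinib and 0 in agrimoniin, at least 46-fold higher at a floor of 3 counts. Gbp2b (155 and 22.7 CPM), Rnaset2b (58.5 and 5.66 CPM), Rttn (71.8 and 13.2 CPM) and Tbc1d20 (83.1 and 18.9 CPM) were the next highest. The 5 lowest were Champ1 (5.66 CPM in erlotinib, 43.4 CPM in agrimoniin), the cytokine Il10 (13.2 and 60.4 CPM), Fcrls (102 and 312 CPM), Clba1 (20.8 and 73.6 CPM) and Dgat1, an enzyme of triglyceride synthesis (9.44 and 41.5 CPM). Acod1 had 106 CPM in erlotinib and 26.4 CPM in agrimoniin, with 32.1% of the erlotinib UMIs in 1 barcode. Il1rn had 514 CPM in erlotinib and 304 CPM in agrimoniin, with 234 CPM in combination and 355 CPM in control. By macrophage-like cluster, Acod1 had 40 UMIs in erlotinib and 4 in agrimoniin in the cluster led by Ccl3 and Ccl4, 13 and 7 in that led by Ccl8 and Cbr2, and 3 and 3 in that led by Adam8 and Il7r. The Il1rn ratios in the same order were 1.97 (1.37 to 2.88), 1.02 (0.679 to 1.52) and 2.09 (1.54 to 2.86). In that order Il1rn had 480, 396 and 638 CPM in erlotinib and 360, 587 and 282 CPM in control. Control was thus above erlotinib in the cluster led by Ccl8 and Cbr2.

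Within monocyte-like parts (66 of erlotinib and 43 of agrimoniin), counts were lowest and intervals widest. Over all mouse genes with a mean of at least 10 CPM in a class, 22.4% were higher and 16.1% lower past 1.5-fold in monocyte-like parts, against 8.79% and 7.35% in macrophage-like parts and 9.3% and 10.5% in fibroblast-like parts. Il1rn had 1481 CPM in erlotinib and 595 CPM in agrimoniin (2.49, 1.94 to 3.21), Acod1 had 357 and 96.8 CPM (3.69, 2.05 to 7.22), and Spp1 had 443 and 96.8 CPM (4.58, 2.56 to 8.90). Among the 5 highest, Tpm3-rs7 had 50 UMIs in erlotinib and 0 in agrimoniin, at least 9.64-fold higher, Gbp2b had 42 and 1 UMIs, and Vkorc1l1, Amz2 and Gzf1 had 19, 15 and 14 UMIs in erlotinib and 0 in agrimoniin. The 5 lowest were Klf2, Gbp9 (5 UMIs in erlotinib, 23 in agrimoniin), and Ank2, H2afx and Zfp954, with 0 UMIs in erlotinib against 8, 6 and 6 in agrimoniin.

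Other host lists were read over all mouse parts. The inflammatory macrophage list had 2 of 16 lower and 0 higher, with a median of -0.30. Ccl2, a monocyte chemokine on this list, had 961 CPM in erlotinib and 1384 CPM in agrimoniin. In fibroblast-like parts Ccl2 had 1894 CPM in erlotinib and 2725 CPM in agrimoniin (0.695, 0.642 to 0.751). Its ratios were 0.788 (0.632 to 0.981) in the Grem1 cluster and 0.810 (0.744 to 0.882) in the Prg4 cluster, both nearer to 1. In macrophage-like parts it had 374 and 317 CPM in that order (1.18, 0.955 to 1.46), on the other side. In the inflammatory fibroblast list 5 of 16 were lower and 1 higher, led by Has1, a hyaluronan synthase, at 92.5 CPM in erlotinib and 218 CPM in agrimoniin. The matrix remodelling list had 5 of 20 lower and 0 higher, with the proteoglycan Dcn at 256 CPM in erlotinib and 466 CPM in agrimoniin. Dcn was a leading gene of the Prg4 cluster, which held 37 erlotinib and 55 agrimoniin parts. Thbs2 had 244 CPM in erlotinib and 448 CPM in agrimoniin. Among 11 measured NRF2 targets 2 were higher, and Slc7a11 had 62.2 CPM in erlotinib and 32.9 CPM in agrimoniin, on the other side from human SLC7A11. In the interferon list 3 of 15 were higher (Ifi44, Isg15 and Cxcl9) and 1 lower (Gbp2). In the list of Mmp12 and Arg1 macrophages 4 of 13 were higher and 2 lower, with 8 below 0 and a median of -0.11. Spp1 from this list had 1096 CPM in erlotinib and 516 CPM in agrimoniin over all mouse parts. In fibroblast-like parts it had 2018 and 881 CPM, and in macrophage-like parts 483 and 298 CPM (1.62, 1.32 to 1.99). Its macrophage-like level was 167 CPM in combination and 710 CPM in control, which was above erlotinib. By macrophage-like cluster its ratios were 3.19 (led by Ccl8 and Cbr2), 2.83 (Ccl3 and Ccl4) and 0.749 (Adam8 and Il7r). The resident macrophage list had 3 of 12 higher and 0 lower, with 6 above 0, 6 below and a median of 0.02. Folr2, a folate receptor and 1 of the 3, had 134 CPM in erlotinib and 85.2 CPM in agrimoniin. The sum of this list went the other way, at 1746 CPM in erlotinib and 2100 CPM in agrimoniin (0.831, 0.787 to 0.878). In macrophage-like parts the ratio of its sums was 0.824 (0.774 to 0.877). The myofibroblast list had 2 of 14 higher and 1 lower, and the monocyte list 1 of 11 higher and 2 lower. Of 3 measured natural killer genes 2 were lower, and of 17 cell cycle genes 2 were higher and 1 lower. Cell cycle genes differed by class. In fibroblast-like parts 9 of 16 measured were higher and 1 lower (ratio of sums 1.47, 1.28 to 1.69). In macrophage-like parts 0 of 9 were higher and 6 lower (0.762, 0.647 to 0.897). In monocyte-like parts 3 of 6 were higher and 1 lower (1.52, 1.07 to 2.21). Shares over all genes of each class are given above. The glycolysis and lactate list had 1 of 17 lower, the heat shock list 1 of 24 lower, and the EGFR family list 1 of 5 higher. The neutrophil list had 1 measured member, inside the limit, the dendritic list 1, which was lower, and the skin, muscle, fat and blood list 2, both lower.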

How the data were processed

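Single-cell libraries were made from collagenase-digested PANC-1 tumours with a 10x 3′ kit for a target of 8000 cells, per the labels' protocols. The submitters' processing notes name Cell Ranger, hg38 and mm10, without a version. What the authors deposited are raw UMI counts, with no normalisation, for each barcode over 36601 human and 32285 mouse features. Deposited barcodes have 27 bases, which is not that kit's layout, so how barcodes were called is in doubt. Where the labels say erlotinib, the series' design text says cyranin, and groups follow the labels. No doublet caller was run, because every barcode held UMIs of both species.

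Counts were summed over kept parts of a library and scaled to CPM. Ratios have exact 95% intervals conditional on the sum of both counts, and shares have Clopper-Pearson intervals. All cover counting error only. With 1 library per treatment no test was run and no p-value is given. The comparison was run on counts simulated with counting error only, which cannot show how far replicate libraries would differ. Lists (25 human, 24 mouse) were described by counts past 1.5-fold and medians over members with a mean of at least 10 CPM. The compared libraries, the members and the lists were chosen with earlier results of these data known.

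Genes were named by rule: the 15 highest and 15 lowest human genes, the 10 and 10 mouse genes, and 5 and 5 in each host class that had 20 or more parts on both sides. EGFR, DUSP6, LDHA, LDHB and MKI67 were always named, with up to 4 members per list. 1 of the 10 highest mouse genes is not reported here. Other genes, such as Dusp6, Klf2, Hspa1a, Il1rn and Spp1 within host classes, the gene copies and the genes of the same symbol, were chosen after values were seen. Clusters of the mouse parts of 4 libraries came from scanpy 1.11.5, using Leiden at resolution 0.5 on 15 neighbours in 20 principal components of 2000 variable genes. A cluster was named when at least 3 markers with a UMI in at least 25% of its parts were raised 1.5-fold; that 25% condition was set after the data were seen. Names were rebuilt here, and a different naming can give other shares. Human positions are from GENCODE 29. Promoter sequences are from RefSeq GRCh38.p14. TMM factors came from edgeR 4.0.16. Alternatives covered the pseudocount, expression limits, scaling, weighting of parts, limits on parts and clustering.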

Additional observations from a re-analysis of the deposited data

How the results depend on the processing

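Under 10 other settings, of which the pseudocount and the expression limits cannot turn a direction, the 22 higher and 42 lower human genes kept theirs, and 17 to 22 and 34 to 42 of them stayed past 1.5-fold. The lowest were 17 of the 22 with no limits on parts, and 17 and 34 where human UMIs made up 75% or more of a barcode. The counts past 1.5-fold moved more. They were 63 and 96 with a pseudocount of 1 CPM, and 13 and 20 with a mean of at least 50 CPM. With no minimum share of parts and a mean of at least 5 CPM the higher count was 36. They were 58 and 87 with a mitochondrial share of at most 10% (168 erlotinib and 150 agrimoniin parts), and 45 and 64 in barcodes with at least 75% human UMIs. Alternatives added after seeing the data took barcodes by the class of their mouse part: 92 and 142 for macrophage-like, 144 and 166 for fibroblast-like and 349 and 508 for monocyte-like, with fewer parts in each. In the last, IGFBP4 (-0.037), NOTUM (-0.32), COL6A3 (1.63), STC1 (-2.12) and CTSV (0.03) changed the sign of their log2 ratio. TMM scaling, which gave factors of 0.997 and 1.003 for erlotinib and agrimoniin, gave 24 and 42. Mouse counts were 330 and 309 with a pseudocount of 1 CPM, 79 and 121 with a mean of at least 50 CPM, and 390 and 494 with no minimum share and a mean of at least 5 CPM. Apart from 1 gene left out with the ribosomal protein genes, the 184 and 194 mouse genes kept their direction under 10 other settings, and 146 to 184 and 165 to 194 of them stayed past 1.5-fold.

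Host shares depended on naming. With parts named by marker counts, macrophage-like parts were 25.2% in erlotinib and 23.6% in agrimoniin, fibroblast-like 20% and 20.2%, monocyte-like 15.7% and 9.43%, and pericyte- or smooth muscle-like 1.64% (0.534 to 3.78) and 7.41% (4.70 to 11.0). At a Leiden resolution of 1.0, fibroblast-like parts were 23.9% and 26.9%, and endothelial-like parts 0.984% and 3.03%. In parts with 2590 or more mouse UMIs, endothelial-like parts were 0.813% and 2.05%. The causes were not tested. No paired analysis was possible because each treatment has 1 library. Depth limits low genes within host classes most, where intervals are wide.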

Other observations

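Further mouse genes, chosen after their values were seen, were at or near 0 in either library. Itga10, an integrin chain, had 36.1 CPM in erlotinib and 2.24 CPM in agrimoniin, with 96.0% of its erlotinib UMIs in 1 barcode. Col10a1, a collagen of hypertrophic cartilage, had 2.17 CPM in erlotinib and 59.8 CPM in agrimoniin, with 37.1 CPM in combination and 99.1 CPM in control. Thbs4, a matrix glycoprotein, had 0 UMIs in erlotinib and 41 in agrimoniin, with 62 in combination and 24 in control. Cyp2e1 had 1 UMI in erlotinib and 45 in agrimoniin, with 91.1% of the agrimoniin UMIs in 1 barcode. Gzma, a protease of killer lymphocytes, had 1 UMI in erlotinib and 78 in agrimoniin, with 0 in combination and 103 in control.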
